A study of Mus musculus with 14 samples.

Results

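The genes followed here present peptides to T cells, across the dorsal hippocampus libraries of a mouse tauopathy study. They were chosen by name: the class I heavy chains H2-K1 and H2-D1, their light chain B2m, the class II chains H2-Aa, H2-Ab1 and H2-Eb1, the invariant chain Cd74, the peptide transporter subunit Tap1, and the inducible proteasome subunits Psmb8 and Psmb9. Both count tables held 9 of the 10 genes, among 27591 gene identifiers listed in either table, and Psmb9 was not analysed here. All 9 genes passed the filter on low counts in both tables.

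RNA was sequenced from male C57BL6 mice aged 8 months, either wild type (WT) or heterozygous for THY-Tau22, a transgene that expresses mutated human Tau in neurons from the Thy1.2 promoter. The basal experiment held untreated, resting animals (WT, n = 3; THY-Tau22, n = 2). The learning experiment held 4 groups that all received injections: WT VEH_HC (saline, kept in the home cage, n = 3), WT VEH (saline, trained in the Morris water maze, n = 2), TAU VEH (THY-Tau22 given the carbon nanosphere carrier CSP, trained, n = 2) and TAU MOL (THY-Tau22 given CSP-TTK21, the carrier bound to an activator of the acetyltransferases CBP and p300, trained, n = 2). Genotype and injected vehicle therefore changed together between TAU VEH and WT VEH and cannot be told apart. Libraries held 28639121 to 37681155 counts in the basal experiment and 24693713 to 52180305 in the learning experiment. Thy1, whose promoter drives the transgene, stood at 1842 to 2352 CPM (counts scaled by library size) in untrained THY-Tau22 against 795 to 874 in untrained WT, and at 1805 to 2109 in the 4 trained THY-Tau22 libraries against 786 to 913 in the 5 WT libraries of the learning experiment, so that every library followed its genotype label.

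As background, class I molecules sit on nearly all nucleated cells and display peptides cut by the proteasome in the cytosol, which the TAP transporter moves into the endoplasmic reticulum. Each class I molecule is a heavy chain bound to beta-2 microglobulin, and the inducible subunits replace constitutive ones in the proteasome when cells meet interferon. Class II molecules display peptides from endosomes, and Cd74 fills their groove until proteases of the endosome remove it. In resting brain, class II is carried mostly by macrophages at the borders of the tissue and little by microglia, which can raise it in disease.

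Most of the 9 genes lie together in the major histocompatibility complex on chromosome 17 (mm9): H2-K1 at chr17:34132962-34137278, Tap1 at chr17:34324498-34334170, Psmb8 at chr17:34334666-34338399, H2-Ab1 at chr17:34400154-34406363, H2-Aa at chr17:34406276-34424772, H2-Eb1 at chr17:34442828-34453144 and H2-D1 at chr17:35399675-35404444. B2m lies apart, at chr2:121973422-121978819, and Cd74 lies outside the complex too. Class I and class II genes share an upstream control element, the paired X and Y boxes, on which the transactivators of the MHC assemble. The sequences just upstream of the start are printed to show how alike these genes are in that element. RefSeq (GRCm38.p6) held upstream sequence for 8 of the 10 genes, including Psmb9; H2-Ab1 and Cd74 were not matched. H2-K1 has 2 starts in the table, and the one further downstream was taken. Each line gives 250 bases, 5′ to 3′, that end at the base before the start. In the first 5, capitals mark TGANG and ATTGG where 19 to 21 bases separate them; the B2m line also has GAAANNGAAA, the core of an interferon response element, in capitals, and the Psmb8 line has TTCNNNGAA, the site form bound by STAT factors.
H2-K1 (chr17:34000334-34000583, minus strand): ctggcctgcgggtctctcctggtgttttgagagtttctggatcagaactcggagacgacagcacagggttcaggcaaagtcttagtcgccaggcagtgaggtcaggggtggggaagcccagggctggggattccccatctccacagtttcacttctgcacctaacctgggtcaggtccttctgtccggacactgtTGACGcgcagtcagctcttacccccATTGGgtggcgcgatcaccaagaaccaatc
H2-D1 (chr17:35262844-35263093, plus strand): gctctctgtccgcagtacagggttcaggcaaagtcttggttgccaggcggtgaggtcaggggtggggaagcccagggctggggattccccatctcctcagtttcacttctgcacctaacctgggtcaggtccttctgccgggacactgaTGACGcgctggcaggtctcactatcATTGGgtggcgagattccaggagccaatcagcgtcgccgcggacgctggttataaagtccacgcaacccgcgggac
B2m (chr2:122147437-122147686, plus strand): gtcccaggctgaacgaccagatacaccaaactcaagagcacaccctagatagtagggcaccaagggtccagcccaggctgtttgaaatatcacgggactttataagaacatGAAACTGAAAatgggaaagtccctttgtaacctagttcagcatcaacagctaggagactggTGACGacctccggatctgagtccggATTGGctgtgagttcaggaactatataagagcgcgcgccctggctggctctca
H2-Aa (chr17:34287824-34288073, minus strand): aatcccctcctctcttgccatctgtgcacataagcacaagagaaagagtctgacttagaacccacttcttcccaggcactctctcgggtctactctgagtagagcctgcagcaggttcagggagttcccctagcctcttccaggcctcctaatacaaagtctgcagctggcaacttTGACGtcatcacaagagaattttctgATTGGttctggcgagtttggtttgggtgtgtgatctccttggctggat
H2-Eb1 (chr17:34305617-34305866, plus strand): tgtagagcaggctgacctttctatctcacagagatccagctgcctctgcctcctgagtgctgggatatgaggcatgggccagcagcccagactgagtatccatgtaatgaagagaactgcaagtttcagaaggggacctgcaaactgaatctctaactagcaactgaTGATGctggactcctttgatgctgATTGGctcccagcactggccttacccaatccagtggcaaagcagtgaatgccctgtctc
Psmb8 (chr17:34197945-34198194, plus strand): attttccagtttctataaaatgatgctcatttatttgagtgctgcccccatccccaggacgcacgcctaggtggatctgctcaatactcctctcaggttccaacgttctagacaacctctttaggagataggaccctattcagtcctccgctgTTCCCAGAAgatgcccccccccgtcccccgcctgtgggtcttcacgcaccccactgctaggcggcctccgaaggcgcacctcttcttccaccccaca

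The pair TGANG and ATTGG was present in all 5 MHC chain genes matched (H2-K1, H2-D1, B2m, H2-Aa and H2-Eb1), with a spacing of 20 bases in H2-K1, H2-D1 and B2m, 21 in H2-Aa and 19 in H2-Eb1. Of 32851 RefSeq upstream windows of the same length, 0.846% held the pair on either strand. It was not found in these windows of Tap1, Psmb8 or Psmb9. GAAANNGAAA stood 139 bases before the start of B2m and occurred in 2.98% of windows on either strand, and TTCNNNGAA stood 97 bases before the start of Psmb8 and occurred in 7.02%. Only these exact patterns were searched, so windows without a match, such as those of H2-K1 and H2-D1, can still hold looser forms. The windows of H2-K1 and H2-D1 aligned over 191 bases, 172 of them identical (90.1%), whereas Tap1 and Psmb9, which are read in opposite directions, shared 225 bases of the same window. These matches describe the letters and not bound sites.

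Levels per length were compared first, as CPM per kilobase of exon. The length was that of all annotated exons of a gene together, such as 5476 bases for Tap1, 2736 for Psmb8 and 860 for B2m. Levels per kilobase, and so their order, rest on this choice of length. The light chain B2m was the most abundant of the 9 genes, with a median of 104 CPM per kilobase over the 5 basal libraries (range 96.9 to 124) and 77.3 over the 9 learning libraries (65.5 to 89.7). The heavy chains followed, H2-D1 with medians of 17.6 and 13.6 and H2-K1 with 14.2 and 9.83 in the basal and learning experiments, and the ranges of these 3 genes did not overlap in either experiment. Cd74 came next (median 4.14 basal, 3.79 learning), above the class II chains it escorts. In the learning experiment its lowest library (2.20) stood above the highest of the genes ranked below it, whereas in the basal experiment its range (2.41 to 8.26) met that of H2-Eb1 (1.39 to 2.53).

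The last 5 genes lay close to 1 CPM per kilobase and their ranges overlapped along the order. In the basal experiment the medians ran from H2-Eb1 (1.93) through Psmb8 (1.48), H2-Ab1 (1.42) and H2-Aa (1.36) to Tap1 (0.832), and in the learning experiment from Psmb8 (1.02) through Tap1 (0.958), H2-Eb1 (0.894) and H2-Ab1 (0.607) to H2-Aa (0.464). Counts behind these values were low for the class II chains, 13 to 79 reads per learning library for H2-Aa, 22 to 85 for H2-Ab1 and 32 to 66 for H2-Eb1, and high for B2m, 1801 to 3752. The basal and learning tables were scaled apart, so differences in level between the experiments were not tested.

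**Figure D1:**
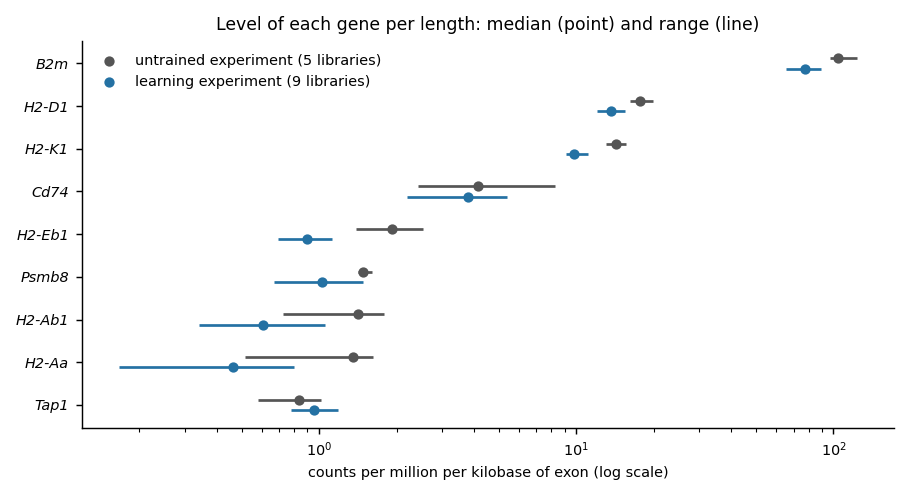
Level of each gene per length, in CPM per kilobase of exon on a log axis, with points for the median over the libraries of an experiment and lines from the lowest to the highest library. B2m, H2-D1 and H2-K1 stand apart at the top in both experiments, and the last 5 genes lie near 1.

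The genes also differed in how much they varied between libraries. Across all 9 learning libraries the highest CPM was 1.22 times the lowest for H2-K1, 1.29 times for H2-D1, 1.37 times for B2m, 1.53 times for Tap1, 1.61 times for H2-Eb1, 2.21 times for Psmb8, 2.45 times for Cd74, 3.10 times for H2-Ab1 and 4.81 times for H2-Aa. H2-Aa, H2-Ab1, H2-Eb1 and Cd74 were lowest together in WT replicate 1 of the basal experiment, and H2-Aa, Cd74 and H2-Eb1 were highest together in WT VEH_HC replicate 2 of the learning experiment, where H2-Ab1 ranked second. The summed level of 6 border macrophage markers (Mrc1, Cd163, Lyve1, Pf4, F13a1 and Cbr2, each detected in every library) was also lowest of the basal libraries in WT replicate 1 (3.94 CPM against 5.00 to 7.01) and highest of the learning libraries in WT VEH_HC replicate 2 (5.10 against 2.31 to 4.45). The latter library also had an endothelial marker sum of 226 CPM (110 to 154 in the other learning libraries) and an oligodendrocyte sum of 3418 CPM (5516 to 7186 in the others). Its sum of 5 dendritic cell markers was the highest too, at 15.9 CPM against 11.5 to 13.96 in the other learning libraries. Nearly all of that sum was Flt3 and Zbtb46. Xcr1 and Clec9a stayed between 0 and 0.40 CPM in all 14 libraries. The part of these cells in the class II levels was not tested, and in bulk tissue fewer cells of a type and less RNA per cell cannot be told apart. Lymphocyte markers were close to 0: the T cell sum was 0.41 to 0.84 CPM and the B cell sum 0.08 to 0.73 CPM over all 14 libraries, with Ms4a1 at 0 in 12 of them. The highest B cell sum was that of WT VEH_HC replicate 2 (0.08 to 0.39 CPM in the other learning libraries). That library also had the lowest microglial sum of the learning experiment (389 CPM against 427 to 488) and the lowest astrocyte sum (1108 against 1199 to 1678).

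**Figure D2:**
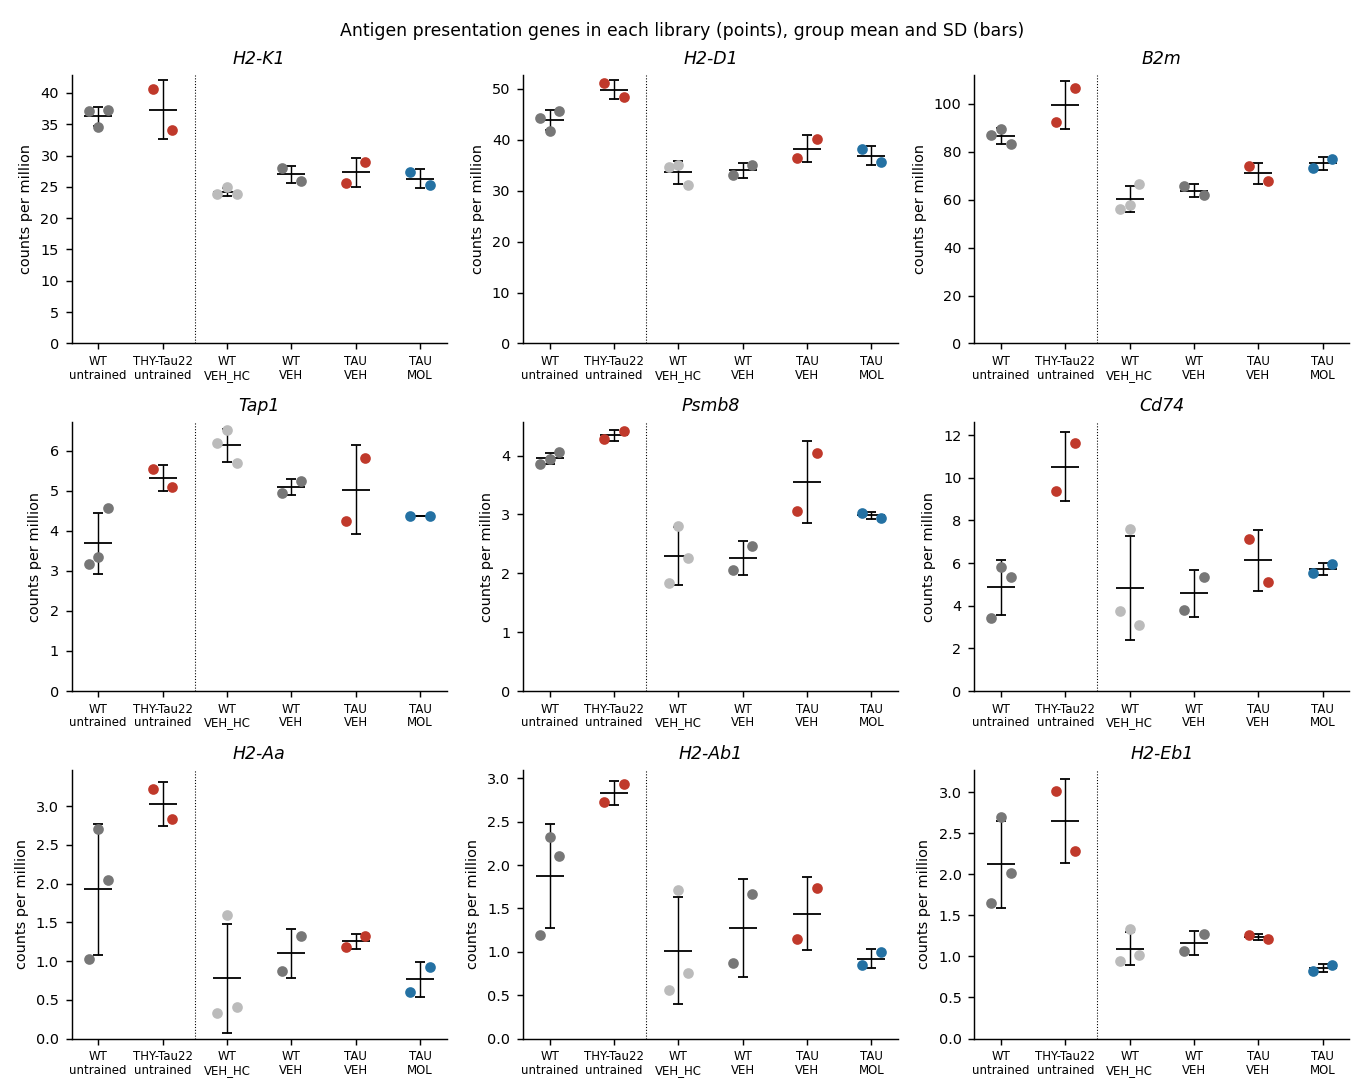
CPM of the 9 genes in every library (points) with the group mean and SD (bars); the dotted line divides the basal from the learning experiment. Cd74 was higher in both untrained THY-Tau22 libraries (9.37 and 11.6) than in the 3 WT libraries (3.40 to 5.83), and within each experiment B2m, H2-D1 and Psmb8 were above every WT library in all THY-Tau22 libraries; with levels corrected for GC content B2m kept this in the basal experiment and lost it in the learning experiment.

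The first comparison asked what the Tau transgene changed in resting animals. None of the 9 genes passed the limits (edgeR's quasi-likelihood test, a change in log2 of over 0.2 either way at an adjusted p under 0.05), where 0.0245% of all 16324 genes did (4 genes), and 2 of the 9 (Cd74 and Tap1) had an unadjusted p under 0.05, as did 803 of all genes. By DESeq2, 1 of the 9 was called, Cd74, among 41 genes in all (0.167%). All 9 estimates were positive, with a median log2 fold change of 0.32, against -0.01 over all genes tested.

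Cd74 differed most. It was 3.40, 5.83 and 5.34 CPM in the WT libraries and 9.37 and 11.6 CPM in the THY-Tau22 libraries. Both transgenic libraries lay above all 3 WT libraries, and the fitted level was 2.16-fold higher (log2 fold change 1.11 ± 0.22 SE, 95% confidence interval 0.62 to 1.61, adjusted p = 0.235 by edgeR). The call depended on the tool and the filter: the adjusted p was 0.00474 by DESeq2, 0.000392 in edgeR with every gene of at least 1 count kept, and 0.00857 with the replicate number as a block. Leaving out 1 library at a time gave log2 fold changes between 0.93 and 1.29, and leaving out THY-Tau22 replicate 2, the library with a choroid plexus marker sum of 1306 CPM (268 to 437 in the other basal libraries), gave 0.95 with an adjusted p of 0.948.

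The class II chains lay in the same direction with wider errors. H2-Aa was 1.03, 2.70 and 2.04 CPM in WT and 3.23 and 2.83 CPM in THY-Tau22 (log2 fold change 0.66 ± 0.34 SE, adjusted p = 0.901 by edgeR). H2-Ab1 was 1.19, 2.33 and 2.11 CPM in WT and 2.73 and 2.93 CPM in THY-Tau22 (0.60 ± 0.29 SE, adjusted p = 0.901). H2-Eb1 was 1.65, 2.70 and 2.01 CPM in WT and 3.01 and 2.29 CPM in THY-Tau22, so that its groups overlapped. The ratio of Cd74 CPM to the summed CPM of the 3 chains was 0.755 to 0.881 in WT and 1.04 and 1.45 in THY-Tau22, higher without overlap. In the learning experiment it overlapped, at 1.25 to 2.06 in the 5 WT and 1.19 to 2.43 in the 4 THY-Tau22 libraries. The border macrophage sum was 3.94, 6.15 and 5.00 CPM in WT and 7.01 and 5.89 CPM in THY-Tau22, overlapping, with 0 of its 6 genes called, and the microglial sum of 8 markers was 457 to 483 CPM in WT and 534 and 510 CPM in THY-Tau22. Higher without overlap were the microglial sum, the dendritic cell sum (12.4 to 13.3 CPM in WT, 14.5 and 14.4 CPM in THY-Tau22) and the astrocyte sum (1547 to 1662 against 1841 and 2160 CPM). Nearly all of the dendritic cell sum was Flt3 and Zbtb46. Of the astrocyte markers, mean Gfap was 626 CPM in WT and 985 CPM in THY-Tau22. Mean Aqp4 and Slc1a3 were higher too, and mean Aldh1l1 (69.7 against 60.6 CPM) and Gja1 (210 against 193 CPM) were lower. The oligodendrocyte sum was lower without overlap, at 10060, 6136 and 8556 CPM in WT and 6074 and 5613 CPM in THY-Tau22. The part of these cells in the class II levels of untrained mice was not tested.

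Among the class I and processing genes, Tap1 differed most. It was 3.16, 3.33 and 4.56 CPM in WT and 5.55 and 5.08 CPM in THY-Tau22 (log2 fold change 0.53 ± 0.21 SE, adjusted p = 0.901 by edgeR), with no overlap. B2m was 87.0, 89.7 and 83.3 CPM in WT and 92.5 and 107 CPM in THY-Tau22 (0.20 ± 0.11 SE), H2-D1 was 44.2, 41.8 and 45.6 CPM against 51.2 and 48.5 CPM (0.19 ± 0.11 SE), and Psmb8 was 3.86, 3.94 and 4.05 CPM against 4.28 and 4.41 CPM (0.14 ± 0.18 SE). H2-K1 overlapped between the genotypes, at 34.5 to 37.2 CPM in WT and 40.6 and 34.0 CPM in THY-Tau22. In all, 7 of the 9 genes were higher in both transgenic libraries than in every WT library, a separation that 9.01% of all genes showed; H2-K1 and H2-Eb1 did not, and none was lower in both (9.49% of all genes were).

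**Figure D3:**
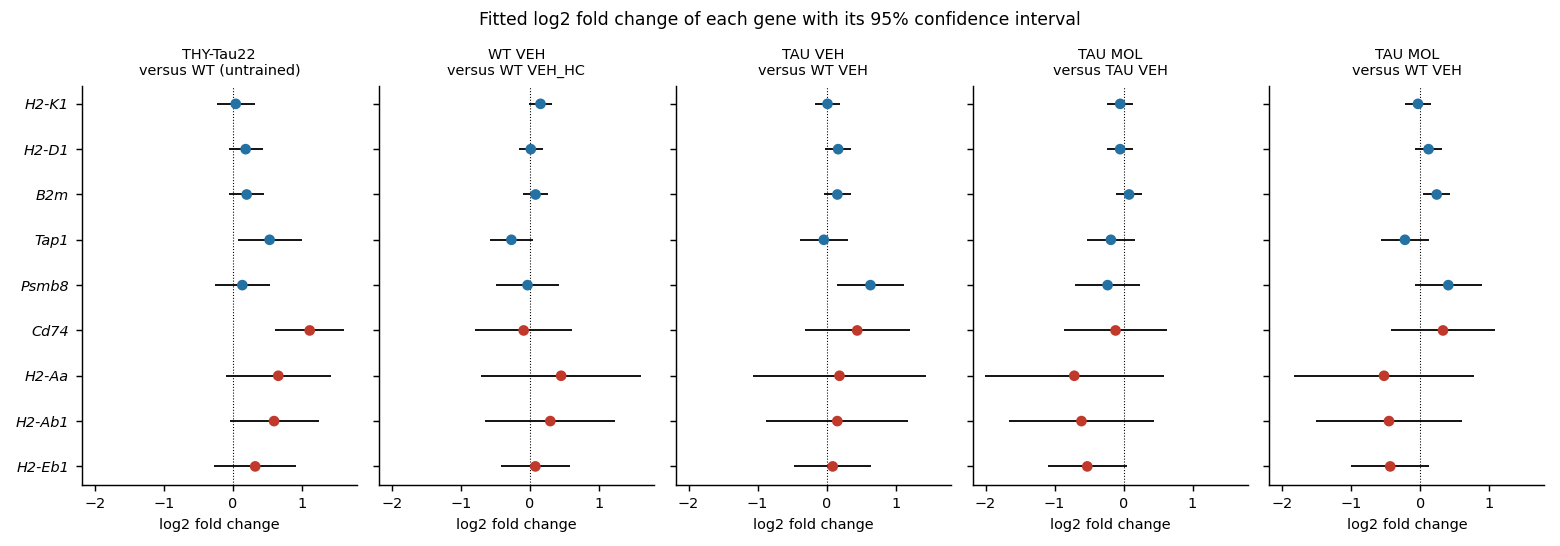
Fitted log2 fold change of each gene in the 5 comparisons (points; class I and processing in blue, class II in red) with its 95% confidence interval (lines). The class II intervals are the widest, and the interval lies above 0 for Cd74 and Tap1 in untrained THY-Tau22, Psmb8 in TAU VEH versus WT VEH and B2m in TAU MOL versus WT VEH.

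The second comparison asked what spatial training changed in WT mice. None of the 9 genes was called between WT VEH and WT VEH_HC, where 8.4% of all 16820 genes were (1413 genes by edgeR), none had an unadjusted p under 0.05 (4683 of all genes did), and DESeq2 called none of them (7.11% of all genes). The class I genes moved little: the 95% confidence interval of the log2 fold change was -0.16 to 0.19 for H2-D1, -0.09 to 0.26 for B2m and -0.01 to 0.33 for H2-K1. H2-K1 was 23.8, 25.0 and 23.8 CPM in the home cage and 28.0 and 26.0 CPM after training, without overlap (log2 fold change 0.16 ± 0.08 SE, adjusted p = 0.213 by edgeR). Tap1 was 6.18, 6.51 and 5.70 CPM in the home cage and 4.96 and 5.24 CPM after training, lower without overlap (-0.27 ± 0.14 SE, adjusted p = 0.242 by edgeR). Across all genes, 43.8% were separated between the trained and the home-cage libraries, in either direction.

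Class II estimates depended on single libraries in this comparison. H2-Aa was 0.33, 1.59 and 0.41 CPM in the home cage and 0.87 and 1.32 CPM after training, and the high home-cage value was that of WT VEH_HC replicate 2, the library with the high border macrophage sum. With it, the log2 fold change of H2-Aa was 0.45 ± 0.53 SE (adjusted p = 0.612 by edgeR); without it, 1.54 ± 0.35 SE (adjusted p = 0.0219 by edgeR), the 1 alternative in this comparison under which any of the 9 genes was called. Cd74 was 3.76, 7.59 and 3.10 CPM in the home cage and 3.79 and 5.35 CPM after training, a log2 fold change of -0.09 ± 0.32 SE with all libraries, 0.41 without that library and -0.35 without WT VEH replicate 2. H2-Ab1 was 0.56, 1.71 and 0.76 CPM against 0.87 and 1.67 CPM, and H2-Eb1 0.94, 1.33 and 1.02 CPM against 1.06 and 1.27 CPM, both overlapping. The H2-Ab1 estimate of 0.30 became 0.92 without WT VEH_HC replicate 2 and -0.23 without WT VEH replicate 2.

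**Figure D4:**
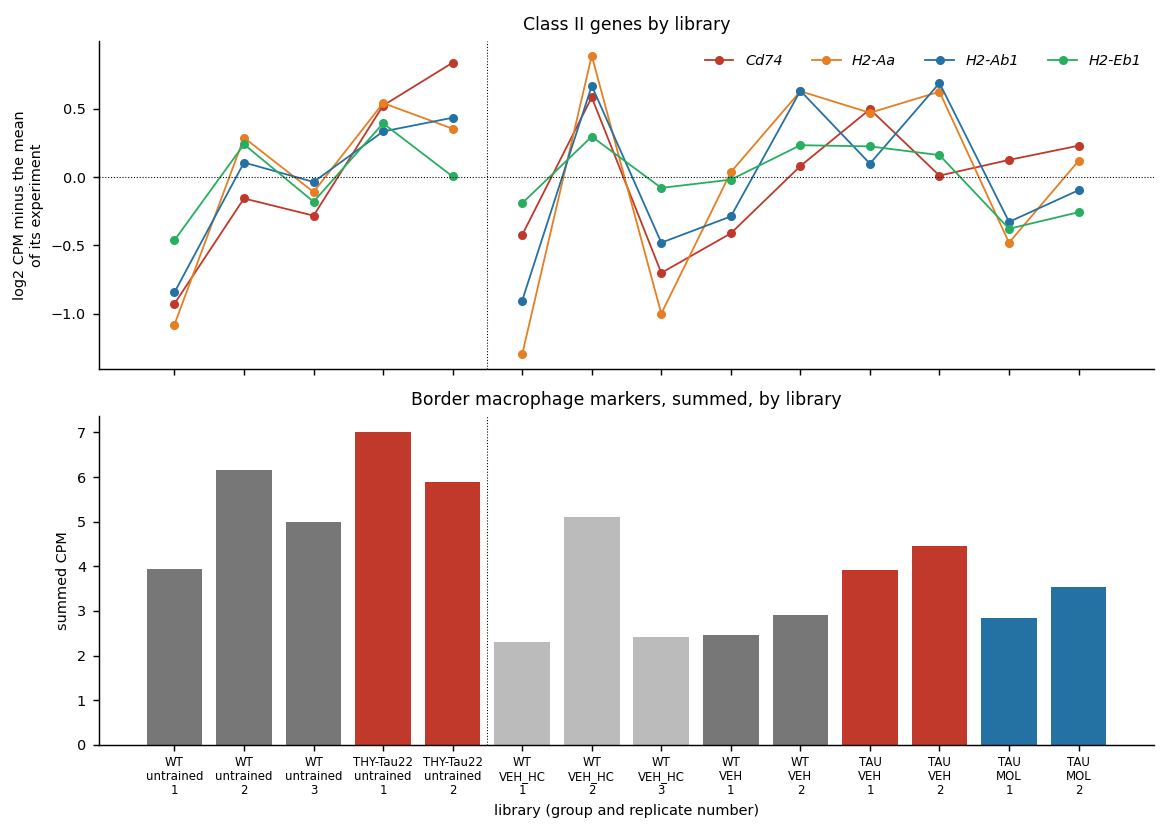
Top, log2 CPM of the 4 class II genes in each library minus the mean of the experiment; bottom, summed CPM of 6 border macrophage markers (bars, coloured by group). In the learning experiment WT VEH_HC replicate 2 had the highest marker sum (5.10) and the highest Cd74, H2-Aa and H2-Eb1.

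Of 5 genes listed for the endosomal processing of the class II route, 2 rose with training, when 8.4% of all genes were called in either direction: Ctss, the cathepsin that trims the invariant chain, from 39.5 ± 7.08 to 53.4 ± 0.52 CPM (SD, n = 3 and 2; log2 fold change 0.43 ± 0.11 SE, adjusted p = 0.0412 by edgeR), and Ctsl, another endosomal cathepsin, from 38.6 ± 3.93 to 51.7 ± 2.15 CPM (0.42 ± 0.09 SE, adjusted p = 0.0246 by edgeR). P2ry12, a purinergic receptor that marks resting microglia, rose as well (0.53 ± 0.14 SE, adjusted p = 0.0434), as 1 of 8 microglial markers called. With GC content and length taken out, none of these 3 was called (log2 fold change 0.30 and adjusted p = 0.0893 for Ctss, 0.31 and 0.0587 for Ctsl, 0.33 and 0.123 for P2ry12). In 9 fits that each left out 1 library, the Ctss and P2ry12 calls held in 1 each and the Ctsl call in 6. All 12 choroid plexus markers rose, their sum standing at 2454 and 1586 CPM in WT VEH and 78.1 to 236 CPM in WT VEH_HC; Ttr, the thyroxine carrier made by choroid plexus, was 1735 ± 541 against 78.3 ± 76.1 CPM (SD). Of 5 blood markers Hbb-b1 and Hbb-b2, chains of haemoglobin, rose. The blood sum was 32.4 and 36.9 CPM in WT VEH and 22.5 to 28.5 CPM in WT VEH_HC. The microglial sum was 453 and 461 CPM in WT VEH and 389 to 452 CPM in WT VEH_HC, higher without overlap. The dendritic cell sum was 11.6 and 12.1 against 12.2 to 15.9 CPM, lower without overlap. The part of choroid plexus, blood and these other cells in the cathepsin levels was not tested. With the choroid plexus score as a covariate no gene of the whole table was called. The score follows the groups, so that fit cannot tell score and group apart. None of the 7 genes listed for class I peptide loading, the 6 for the proteasome, the 11 for MHC transcription or the other MHC genes was called.

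The third comparison set trained THY-Tau22 mice that received the carrier against trained WT mice. None of the 9 genes was called between TAU VEH and WT VEH, although 14.4% of all genes were (608 higher and 1815 lower by edgeR), and none was called by DESeq2 (9.56% of all genes). Among the 9, 1 gene (Psmb8) had an unadjusted p under 0.05, against 4566 of all genes. Of the 9 estimates, 8 were positive, with a median log2 fold change of 0.16 (0.00 over all genes).

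Psmb8, the catalytic subunit that replaces Psmb5 in the immunoproteasome, differed most. It was 2.05 and 2.46 CPM in WT VEH and 3.06 and 4.04 CPM in TAU VEH, 1.55-fold higher (log2 fold change 0.64 ± 0.22 SE, 95% confidence interval 0.15 to 1.12, adjusted p = 0.0837 by edgeR). It passed the limits under 4 alternatives: library size alone as the scaling (adjusted p = 0.0282), no filter on low counts (0.0322), a fit of these 4 libraries alone (0.0377) and a fit without WT VEH_HC replicate 2 (0.0397). Over all alternatives its adjusted p ran from 0.0282 to 0.739. H2-D1 was 33.0 and 35.0 CPM in WT VEH and 36.4 and 40.2 CPM in TAU VEH (0.17 ± 0.09 SE, adjusted p = 0.249 by edgeR), and B2m was 65.6 and 62.0 CPM against 74.1 and 68.0 CPM (0.16 ± 0.09 SE, adjusted p = 0.3005). These 3 genes were higher in both TAU VEH libraries than in both WT VEH libraries, a separation shown by 28.5% of all genes, and none of the 9 was lower in both (29.4% of all genes were). With library size alone as the scaling, H2-D1 and B2m were called too, along with 3598 genes in all.

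H2-K1 (log2 fold change 0.01, 95% confidence interval -0.18 to 0.20) and Tap1 (-0.04, interval -0.39 to 0.30) overlapped between the groups. Class II overlapped throughout. Cd74 was 3.79 and 5.35 CPM in WT VEH and 7.15 and 5.09 CPM in TAU VEH (0.44 ± 0.35 SE), H2-Aa 0.87 and 1.32 CPM against 1.18 and 1.32 CPM, H2-Ab1 0.87 and 1.67 CPM against 1.15 and 1.74 CPM, and H2-Eb1 1.06 and 1.27 CPM against 1.26 and 1.21 CPM. The border macrophage sum was 2.47 and 2.91 CPM in WT VEH and 3.91 and 4.45 CPM in TAU VEH, with 0 of its 6 genes called. The dendritic cell sum was 11.6 and 12.1 against 13.03 and 13.96 CPM, also higher without overlap. Its markers Xcr1 and Clec9a were very low in every library. The endothelial sum was 154 and 146 against 118 and 129 CPM, lower without overlap. No gene of the dendritic cell or endothelial list was called. The oligodendrocyte sum was lower without overlap too (6461 and 6378 against 5981 and 6160 CPM). So was the hippocampal neuron sum (3229 and 3309 against 2999 and 2949 CPM). The astrocyte sum was higher (1303 and 1215 against 1545 and 1678 CPM). The choroid plexus sum was 2454 and 1586 against 235 and 279 CPM, with all 12 of its genes lower. The part of these cells in the class II levels was not tested.

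Other genes of the pathway were called in both directions, against 14.4% of all genes called. Of the 7 listed for class I peptide loading, 2 fell: Tap2, the partner of Tap1 in the transporter, from 15.4 ± 1.51 to 11.4 ± 0.96 CPM (SD, n = 2 each; log2 fold change -0.44 ± 0.11 SE, adjusted p = 0.0175 by edgeR), and Tapbp, which tethers empty class I molecules to the transporter (-0.43 ± 0.09 SE, adjusted p = 0.00665). Of the 6 listed for the proteasome, Psmb5, the constitutive counterpart of Psmb8, fell from 120 ± 19.4 to 92.2 ± 8.60 CPM (-0.38 ± 0.10 SE, adjusted p = 0.0274). Ctss, 1 of the 5 listed for endosomal processing, rose again, from 53.4 ± 0.52 to 75.9 ± 3.33 CPM (0.51 ± 0.12 SE, adjusted p = 0.0186), and Irf8, a transcription factor of microglia and macrophages and 1 of 11 listed for MHC transcription, rose from 4.79 ± 0.44 to 7.09 ± 0.54 CPM (0.56 ± 0.12 SE, adjusted p = 0.0110). With GC content and length taken out, Irf8 was called (log2 fold change 0.63, adjusted p = 0.0222) and the other 4 were not (0.42 and 0.0540 for Ctss, -0.20 and 0.217 for Tapbp, -0.21 and 0.306 for Tap2, -0.18 and 0.308 for Psmb5). Fits that each left out 1 library kept the calls of Irf8, Tap2, Tapbp and Psmb5 in 7 of 9 and that of Ctss in 5 of 9. Each was lost without at least 1 WT VEH and at least 1 TAU VEH library. With the choroid plexus score as a covariate none of the 5 was called (adjusted p = 0.410 for Irf8), nor was any gene of the whole table. Because the score follows the groups, that fit cannot tell score and group apart. None of the other MHC genes tested was called, 9 of them listed with class I and 4 with class II. Of 8 microglial markers, 1 was called, Tmem119, a membrane protein of microglia, which fell (-0.35 ± 0.09 SE, adjusted p = 0.0199 by edgeR; -0.07 and 0.735 with GC content and length taken out). The summed level of the 8 overlapped at 453 and 461 CPM in WT VEH and 436 and 488 CPM in TAU VEH. Of 5 astrocyte markers Gfap and Aqp4 rose, and of 5 markers of hippocampal neurons Grin1, Wfs1 and Rbfox3 fell. Of these only Gfap was called with GC content and length taken out. The part of these cells in the pathway genes was not tested.

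The fourth comparison asked what CSP-TTK21 changed in trained THY-Tau22 mice. None of the 9 genes was called for TAU MOL against TAU VEH, and 0.0% of all genes were by edgeR (1064 had an unadjusted p under 0.05, none of them among the 9, and DESeq2 called 54 or 0.208%, none of the 9 among them). Class I levels were close to each other, with 95% confidence intervals of the log2 fold change of -0.23 to 0.14 for H2-K1, -0.24 to 0.14 for H2-D1 and -0.11 to 0.27 for B2m.

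The 3 class II chains were lower in both TAU MOL libraries than in both TAU VEH libraries, as was Psmb8, a separation in this direction that 17.4% of all genes showed, and none of the 9 was higher in both TAU MOL libraries (21.5% of all genes were). H2-Aa was 1.18 and 1.32 CPM in TAU VEH and 0.60 and 0.92 CPM in TAU MOL (log2 fold change -0.71 ± 0.59 SE, adjusted p = 0.939 by edgeR). H2-Ab1 was 1.15 and 1.74 CPM against 0.85 and 0.998 CPM (-0.61 ± 0.48 SE, adjusted p = 0.933), and H2-Eb1 1.26 and 1.21 CPM against 0.82 and 0.90 CPM (-0.53 ± 0.26 SE, adjusted p = 0.822). Cd74 overlapped, at 7.15 and 5.09 CPM in TAU VEH and 5.52 and 5.94 CPM in TAU MOL (-0.12 ± 0.34 SE). These chains rested on 27 to 64 reads per library, and their intervals, such as -2.01 to 0.58 for H2-Aa, spanned changes in both directions. Psmb8 was 3.06 and 4.04 CPM in TAU VEH and 3.03 and 2.94 CPM in TAU MOL (-0.23 ± 0.22 SE). The border macrophage sum was 3.91 and 4.45 CPM in TAU VEH and 2.85 and 3.54 CPM in TAU MOL. The dendritic cell sum, with Xcr1 and Clec9a very low in every library, was 13.03 and 13.96 against 11.5 and 12.3 CPM. Both sums were lower without overlap, and the part of these cells in the class II levels was not tested. The choroid plexus sum was 235 and 279 CPM in TAU VEH and 775 and 711 CPM in TAU MOL. With its marker score as a covariate the log2 fold change turned to 0.65 for H2-Aa and 0.20 for H2-Ab1 and was -0.26 for H2-Eb1 and -0.15 for Psmb8. Because the score follows the groups, that fit cannot tell score and treatment apart.

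The fifth comparison set treated THY-Tau22 mice against trained WT mice and shared the WT VEH libraries with the comparison of TAU VEH. None of the 9 genes was called by edgeR, which called 5.63% of all genes (103 higher, 844 lower; with library size alone 757 and 326), or by DESeq2, which called 5.11%, and 1 of the 9, B2m, had an unadjusted p under 0.05 (3324 of all genes). B2m was 65.6 and 62.0 CPM in WT VEH and 73.3 and 77.1 CPM in TAU MOL (log2 fold change 0.24 ± 0.09 SE, adjusted p = 0.158 by edgeR), and it was called with library size alone as the scaling (adjusted p = 0.0340) or with these 4 libraries fitted alone (0.0485). Corrected for GC content and gene length, the log2 fold change of B2m was 0.14 (adjusted p = 0.432).

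Psmb8 was 2.05 and 2.46 CPM in WT VEH and 3.03 and 2.94 CPM in TAU MOL (0.40 ± 0.22 SE), H2-D1 33.0 and 35.0 CPM against 38.2 and 35.6 CPM (0.12 ± 0.09 SE), and Cd74 3.79 and 5.35 CPM against 5.52 and 5.94 CPM (0.33 ± 0.35 SE). B2m, Psmb8, H2-D1 and Cd74 were higher in both TAU MOL libraries, as were 25.6% of all genes, and H2-Eb1 and Tap1 were lower, as were 26.9%. H2-Eb1 was 1.06 and 1.27 CPM in WT VEH and 0.82 and 0.90 CPM in TAU MOL (-0.44 ± 0.26 SE), and Tap1 4.96 and 5.24 CPM against 4.36 in both TAU MOL libraries (-0.22 ± 0.16 SE). Of the pathway genes, Tap2 (log2 fold change -0.42 ± 0.11 SE, adjusted p = 0.0414 by edgeR) and Psmb5 (-0.43 ± 0.10 SE, adjusted p = 0.0316) fell and Irf8 rose (0.48 ± 0.12 SE, adjusted p = 0.0444). With GC content and length taken out, none of the 3 was called: Tap2 was at -0.26 (adjusted p = 0.309) and Psmb5 at -0.25 (0.256), smaller in size than before, and Irf8 at 0.51 (0.117), no smaller. Tmem119 fell here too (-0.38 ± 0.09 SE, adjusted p = 0.0293 by edgeR; -0.18 and 0.373 with that correction). So did Grin1 and 8 of the 12 choroid plexus markers, whose sum was 2454 and 1586 CPM in WT VEH and 775 and 711 CPM in TAU MOL, while Gfap rose. The part of these cells in the pathway genes was not tested. With the choroid plexus score as a covariate none of the 3 was called (adjusted p = 0.343 for Tap2, 0.223 for Psmb5 and 0.259 for Irf8). The score follows the groups, so that fit cannot tell score and group apart. Without 1 library at a time, the calls of Tap2, Psmb5 and Irf8 held in 3, 5 and 2 of 9 fits.

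Over the whole learning experiment, B2m, H2-D1 and Psmb8 were higher in all 4 THY-Tau22 libraries than in all 5 WT libraries, a separation shown by 10.0% of all genes, and none was lower in all 4 (13.3% of all genes were). B2m ran from 56.3 to 66.5 CPM in WT and from 68.0 to 77.1 CPM in THY-Tau22, H2-D1 from 31.0 to 35.2 and from 35.6 to 40.2 CPM, and Psmb8 from 1.83 to 2.80 and from 2.94 to 4.04 CPM. The same 3 genes were separated by genotype in the basal experiment too, and 1.22% of the 16216 genes tested in both experiments were higher in every THY-Tau22 library of both. The 3 genes were separated in both experiments under DESeq2's size factors, as were 1.35% of all genes, and under library size alone, as were 1.87%. With levels corrected for GC content, H2-D1 and Psmb8 were, as were 0.796% of all genes, and B2m was in the basal experiment alone. Irf8 was 5.38, 6.03 and 5.69 CPM in untrained WT and 8.25 and 9.09 CPM in untrained THY-Tau22 (log2 fold change 0.60 ± 0.15 SE, adjusted p = 0.675 by edgeR), and 4.48 to 5.85 CPM in the WT and 6.58 to 7.47 CPM in the THY-Tau22 libraries of the learning experiment. Exons of B2m held 41.2% G and C and those of the other 8 genes 49.4% to 56.6%. Gene level also moved with GC content in opposite directions by genotype in the learning experiment, with Spearman coefficients across genes of -0.62 to -0.40 in THY-Tau22 and 0.08 to 0.45 in WT libraries. In the basal experiment the 2 THY-Tau22 libraries stood at 0.48 and -0.60 and the WT libraries at 0.07 to 0.32; the part of GC content in the B2m level was measured only by that correction.

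**Figure D5:**
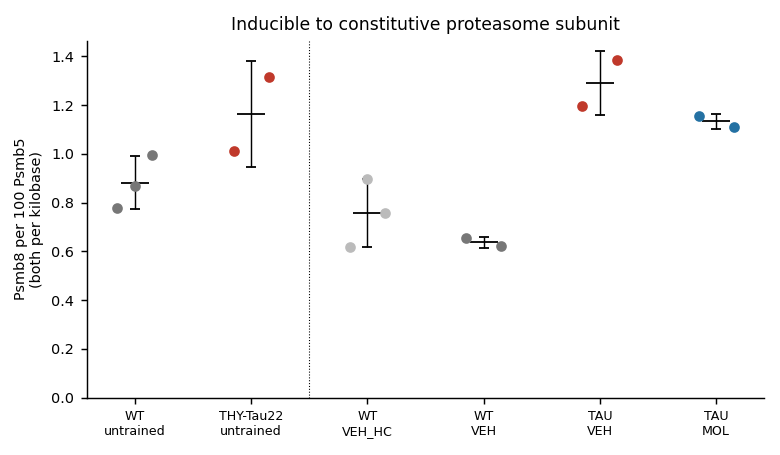
Psmb8 per 100 Psmb5, both as CPM per kilobase of exon, in each library (points) with the group mean and SD (bars). The ratio was 0.62 to 0.99 in the 8 WT libraries and 1.01 to 1.38 in the 6 THY-Tau22 libraries.

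Psmb8 transcripts were few beside those of Psmb5. Per kilobase, there was 0.78 to 0.99 Psmb8 for every 100 Psmb5 in untrained WT and 1.01 and 1.32 in untrained THY-Tau22. In the learning experiment the ratio was 0.62 to 0.89 in the 5 WT libraries, 1.20 and 1.38 in the TAU VEH libraries and 1.16 and 1.11 under TAU MOL, so that the genotypes did not overlap in either experiment, although the nearest untrained libraries were at 0.995 and 1.01. From levels corrected for GC content it was 0.79 to 0.996 in WT and 1.03 and 1.24 in THY-Tau22 untrained, and 0.61 to 0.88 in WT and 1.09 to 1.41 in THY-Tau22 in the learning experiment. The ratio and its correction were chosen after the values were seen, as a description, and were not tested.

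Some reads could come from more than 1 gene. Of all 50-base windows in H2-D1 transcripts, 12.8% also occur in another gene (H2-Q7, H2-Q6, H2-K1 and H2-T23 among them), as do 7.29% of those of H2-K1, 0.834% of those of Tap1 (in Tap2) and none of those of the other 6 genes. Because only uniquely aligned reads were counted, reads from such windows were lost, and the kit did not mark strand. Tap1 shares 212 exon bases with Psmb9 on the other strand, Psmb8 shares 187 with Gm20496, H2-Aa shares 17 with H2-Ab1 and Cd74 shares 12 with AC139759.1 on its own strand, whereas B2m lies in an intron of Patl2 with no shared exon.

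Finally, the genes most like 3 of the members were found from log2 CPM, centred within each experiment and scaled over the 14 libraries, among 16216 genes. The nearest to B2m were Wapal, Zfp943 and Ptprc (root mean square difference 0.312, 0.326 and 0.356 SD), Ptprc being the pan-leukocyte antigen CD45. The nearest to Cd74 were Itgbl1, Tia1 and Gm606 (0.490, 0.545 and 0.555 SD), with H2-Aa at rank 53 and H2-Ab1 at rank 86. The nearest to H2-K1 were Txnip, Hexa and Sdpr (0.547, 0.568 and 0.580 SD), with H2-D1 at rank 184. Psmb8 was the member nearest to B2m, at rank 3333, and H2-D1 the heavy chain nearest to it, at rank 4875.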

How the data were processed

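Poly-A RNA of the dorsal hippocampus was sequenced in 14 libraries (5 basal, 9 learning), as 50-base single-end reads from a kit that does not mark strand. Per the labels and the study's methods, the authors aligned reads to mm9 with TopHat2 2.0.10 and Bowtie2 2.1.0 and counted uniquely aligned reads per gene with HTSeq 0.5.4p3. The authors deposited raw counts and a normalized signal, the counts divided by 1 size factor per library; only the counts were used here. The authors left 3 trained animals out after the fact. The authors' fold changes and p-values were not used.

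Levels are CPM, counts scaled by library size and TMM factors. Tests were edgeR 4.0.16 quasi-likelihood fits in R 4.3.3, with filterByExpr (16324 basal and 16820 learning genes) and Benjamini-Hochberg adjustment over all genes; a call needed a change in log2 of over 0.2 either way at an adjusted p under 0.05. One model held the basal libraries and another all 9 learning libraries. In the learning table, 138 lines without values were left out. DESeq2 1.42.0, other scalings and filters, covariates and left-out libraries were alternatives, and the code was tested on simulated data. The genes and lists were chosen with earlier results of these data known. Named are all members, pathway genes called in at least 1 comparison, P2ry12, Ttr and Thy1, and the 3 genes nearest to B2m, Cd74 and H2-K1. Markers are otherwise given by counts and sums. Exceptions, named after their values were seen, are called markers, the border macrophage list, Ms4a1, 4 dendritic cell markers, Slc1a3, Aldh1l1 and Gja1. With 2 or 3 libraries per group, p-values set a difference in means against a spread estimated from all libraries of the fit and moderated across genes.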

Additional observations from a re-analysis of the deposited data

How the results depend on the processing

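The 9 genes in 5 comparisons gave 45 log2 fold changes, recomputed as 801 alternative estimates of which 12 passed the limits. In untrained mice 1 gene, Cd74, was called by DESeq2, without a filter and with a replicate block; Psmb8 was the 1 gene called in TAU VEH versus WT VEH without a filter, with those groups alone or without WT VEH_HC replicate 2, and 3 genes (B2m, H2-D1, Psmb8) were with library size alone; B2m was the 1 gene called in TAU MOL versus WT VEH with library size alone or those groups alone; leaving out 1 library gave 0 to 1 gene for training and for TAU VEH. Signs changed in 49, 24 of them by less than 1 SE. With the choroid plexus score as a covariate, which follows the groups, the training estimates became -0.41 (B2m), 2.81 (Cd74) and 0.20 (Psmb8), those of TAU VEH versus WT VEH -0.11 (H2-D1), -1.59 (Cd74), -2.48 (H2-Aa), -1.41 (H2-Ab1) and -0.44 (H2-Eb1), those of TAU MOL versus TAU VEH 0.0916 (H2-D1), -0.10 (B2m), 0.94 (Cd74), 0.65 (H2-Aa) and 0.20 (H2-Ab1), and those of TAU MOL versus WT VEH -0.0172 (H2-D1) and -0.65 (Cd74), with no gene called in the first 3 learning comparisons (0 of all genes) and 2 of all genes in the last. Corrected for GC content, B2m was -0.12 for training and H2-K1 0.0623 in TAU MOL versus WT VEH (0.0856 with library size alone). Leaving out 1 library changed the sign, with the range over left-out libraries, for Cd74 (-0.35 to 0.41) and H2-Ab1 (-0.23 to 0.92) in training, H2-K1 (-0.0746 to 0.0999) and Tap1 (-0.26 to 0.19) in TAU VEH versus WT VEH, H2-K1 (-0.14 to 0.0385) and Tap1 (-0.41 to 0.0398) in TAU MOL versus TAU VEH, and H2-Ab1 (-0.85 to 0.0796) in TAU MOL versus WT VEH. The causes were not tested.

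Calls over all genes moved more. Untrained, 4 became 41 (DESeq2), 125 (no filter), 37 (replicate block), 11 (GC correction) and 1 to 15 without 1 library. Training, 1413 became 2686 (no filter), 3000 (replicate block), 783 (GC correction), 310 (those groups alone) and 73 to 2798 without 1 library. TAU VEH versus WT VEH, 2423 became 473 (GC correction) and 915 to 2944 without 1 library, and with library size alone 2578 of 3598 were higher rather than 608 of 2423 (median over all genes 0.15 on the log2 scale). TAU MOL versus TAU VEH, 0 became 54 (DESeq2), 233 (no filter), 60 (those groups alone) and 0 to 15 without 1 library. TAU MOL versus WT VEH, 947 became 1590 (no filter), 19 (GC correction), 1490 (those groups alone) and 2 to 1379 without 1 library, and with library size alone 757 of 1083 were higher rather than 103 of 947 (median 0.12). Same-numbered libraries did not deviate together (correlations of -0.16 to 0.24), so the replicate numbers did not pair the libraries; the block called Cd74 untrained and changed no other call among the 9 genes. The class II chains, at 13 to 104 reads per library, limit what could be detected.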
